A study of Rattus norvegicus with 2 samples.

Results

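Of the 1185 genes on the membranes, 4 are described here: the fructose-bisphosphate aldolases A and C, the testis form of the bifunctional enzyme that makes and breaks down fructose 2,6-bisphosphate, and muscle 6-phosphofructokinase. They were taken by their deposited names, from the genes named an aldolase, a 6-phosphofructo-kinase, a fructose-6-phosphate 2-kinase or a fructose-2,6-bisphosphatase outside the housekeeping row. Cells dissociated from the carotid bodies of Sprague Dawley rats, with 16 organs pooled into each primary culture, were kept for 7 days in chronic hypoxia (1% oxygen, in a chamber flushed with nitrogen and carbon dioxide) or in normoxia (21% oxygen), both at the same temperature and in medium with serum and nerve growth factor. Radiolabelled cDNA made from amplified RNA was hybridised to 3 nylon membranes for chronic hypoxia and 3 for normoxia. The labels do not state whether each membrane had a culture of its own, so every p-value measures only the spread between membranes.

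Aldolase splits fructose 1,6-bisphosphate into a pair of three-carbon sugars in the middle of glycolysis. Aldolase A is the muscle form, found in most tissues, and aldolase C the brain form. Phosphofructokinase makes the substrate of aldolase and is the main control point of glycolysis, and fructose 2,6-bisphosphate is its strongest activator. The bifunctional enzymes set the level of that activator with a kinase and a phosphatase on the same protein. The testis form is known as Pfkfb4, a symbol that the deposited name does not give. In RefSeq's annotation of the rat assembly GRCr8, Aldoa lies at chr1:190832820-190838021, Aldoc at chr10:63715544-63719133, Pfkfb4 at chr8:118522371-118565478 and Pfkm at chr7:131100684-131138250. In many cell types aldolase A, aldolase C and Pfkfb4 are known as targets of the hypoxia-inducible factors, transcription factors that act when oxygen is low.

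Those factors bind a short core, ACGTG or GCGTG, so the RefSeq promoters (assembly GRCr8) are shown for the members with the clearest contrast in that core. A window of 300 bases, from 250 before to 50 after a start, was found for all 4 genes, with 3 windows for Aldoa and 1 each for Aldoc, Pfkfb4 and Pfkm. Matches were sought on both strands. They were present in 3 of these 6 windows, against 41.6% of all 33469 windows of that length: Aldoc held 3 matches, 1 of the 3 Aldoa windows held 1, Pfkm held 1, and Pfkfb4 held 0. The Aldoa window at the annotated 5′ end of the gene held 0 matches, as did another Aldoa window at a start inside it. The Aldoa window with a match and the only windows of Pfkm and Pfkfb4 are also at starts inside the annotated gene. The annotated 5′ ends of Pfkm and Pfkfb4 were therefore not searched. The membranes measure no binding, and a match only describes the letters in this window. Capitals mark the matches, 5′ to 3′ on the strand of the gene.
Aldoc, chr10:63715294-63715593, plus strand: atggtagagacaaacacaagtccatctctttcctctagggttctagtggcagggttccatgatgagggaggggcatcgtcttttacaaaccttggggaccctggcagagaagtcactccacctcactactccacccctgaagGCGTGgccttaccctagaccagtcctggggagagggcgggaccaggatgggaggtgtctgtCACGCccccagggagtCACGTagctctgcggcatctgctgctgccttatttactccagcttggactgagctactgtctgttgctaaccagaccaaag
Aldoa, chr1:190836728-190837027, minus strand: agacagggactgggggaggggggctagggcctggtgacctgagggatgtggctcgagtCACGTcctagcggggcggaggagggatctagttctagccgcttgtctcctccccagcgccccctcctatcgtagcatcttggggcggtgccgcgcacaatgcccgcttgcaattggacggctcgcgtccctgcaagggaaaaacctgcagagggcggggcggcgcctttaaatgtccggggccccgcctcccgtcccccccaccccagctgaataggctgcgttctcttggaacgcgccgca
Pfkfb4, chr8:118525916-118526215, plus strand: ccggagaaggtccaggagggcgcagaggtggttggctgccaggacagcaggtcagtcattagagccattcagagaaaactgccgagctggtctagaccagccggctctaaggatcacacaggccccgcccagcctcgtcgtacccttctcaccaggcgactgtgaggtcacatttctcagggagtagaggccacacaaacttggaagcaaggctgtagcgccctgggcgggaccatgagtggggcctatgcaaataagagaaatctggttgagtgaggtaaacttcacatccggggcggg

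The deposited value is a linear spot intensity with a ceiling of 65535 and with background included. A spot counted as above background where it passed a threshold set for its membrane, the median plus 3 spreads, a spread being the root mean square distance of the dimmer spots from the median. This left 165, 72 and 186 genes on chronic hypoxia membranes 1 to 3 and 161, 139 and 205 on normoxia membranes 1 to 3, and 867 genes on no membrane. Chronic hypoxia membrane 3 stood apart, with a median of 16411 against 1704 to 3409 on the other 5. Its rank correlation with chronic hypoxia membrane 1 was 0.772, against 0.267 to 0.580 for the remaining 14 pairs. Of 7 markers of glomus cells, the oxygen-sensing cells of the carotid body, dopamine beta-hydroxylase, the dopamine transporter and carboxypeptidase E were above background on all 6 membranes, and DOPA decarboxylase and the monoamine transporter on none. In bulk samples such as these, fewer cells of a type and less RNA per cell cannot be told apart.

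Aldolases A and C were clearly detected in carotid body cultures in both conditions, being above background on all 6 membranes, and neither of them differed between chronic hypoxia and normoxia beyond the spread between membranes. The testis bifunctional enzyme was brighter in chronic hypoxia by 1.41 on the log2 scale, but this did not pass after adjustment over the array. Muscle phosphofructokinase was not detected. The plot of spot intensities shows these levels membrane by membrane.

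**Figure D1:**
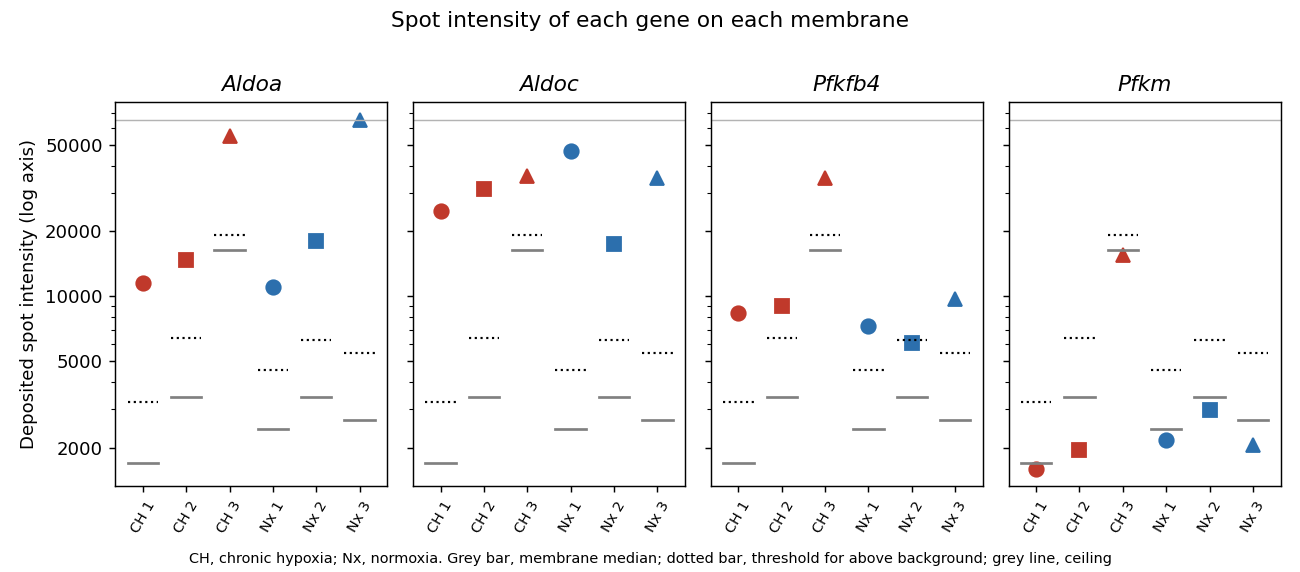
Deposited spot intensity (log axis) of the 4 genes on the 3 chronic hypoxia membranes (CH, red) and the 3 normoxia membranes (Nx, blue); grey bars are each membrane's median, dotted bars its threshold for above background, and the grey line the ceiling of 65535. Aldoa and Aldoc lie above the dotted bars on all 6 membranes, Pfkfb4 on 5 and Pfkm on 0.

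Aldolase A, the form of muscle and most other tissues, varied more between membranes of 1 condition than between conditions. Its intensity was 11460, 14695 and 55260 on chronic hypoxia membranes 1 to 3, against 10988, 18041 and 65535 on normoxia membranes 1 to 3. In each condition membrane 3 was the brightest and membrane 1 the dimmest, and the groups overlapped fully. After background correction and quantile normalization the log2 intensity was 14.54 ± 0.94 (SD, n = 3) in chronic hypoxia and 14.48 ± 1.30 (SD, n = 3) in normoxia, which differed by 0.06 (SE 0.77) with a limma adjusted p of 0.996. Its 95% interval ran from -1.65 to 1.77, so a change of 2-fold either way lies inside it. On normoxia membrane 3 its spot was at the ceiling, where the value, the difference and the SD are not exact. With each membrane left out in turn the difference ran from -0.58 to 0.76, positive in 3 cases and negative in 3, so its direction was not settled.

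Aldolase C, the brain form, ranked between 17 and 50 among all spots on the 6 membranes. Its intensity was 24809, 31415 and 35871 on chronic hypoxia membranes 1 to 3, against 46786, 17420 and 35242 on normoxia membranes 1 to 3. The highest and the lowest value both came from normoxia, and all 3 chronic hypoxia values lay between them. The normalized log2 intensity was 14.51 ± 0.70 (SD, n = 3) in chronic hypoxia and 14.50 ± 0.48 (SD, n = 3) in normoxia, which differed by 0.01 (SE 0.60) with a 95% interval from -1.32 to 1.34 and a limma adjusted p of 1.00. No spot directly beside Aldoc was brighter than it on any membrane. Both Aldoa and Aldoc changed sign with the processing. Over 13 alternatives of background correction, scaling, filter, weights and blocks, the difference ran from -0.30 to 0.09 for Aldoa and from -0.23 to 0.33 for Aldoc.

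**Figure D2:**
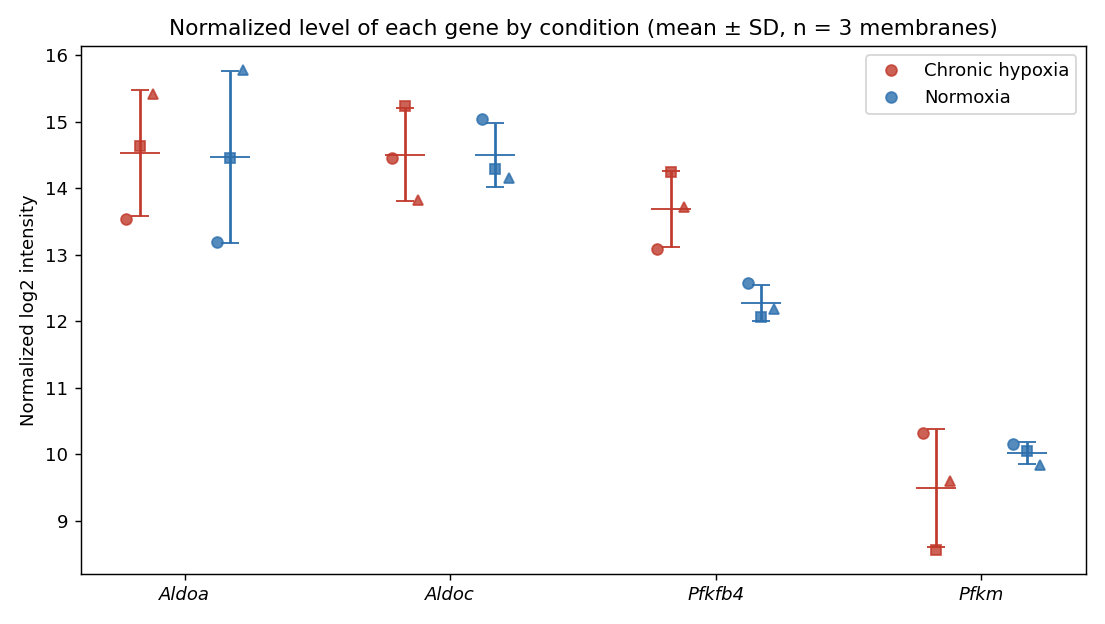
Background-corrected and quantile-normalized log2 intensity of the 4 genes, chronic hypoxia (red) left of normoxia (blue); circles, squares and triangles are membranes 1, 2 and 3, and bars the mean ± SD (n = 3). The groups are apart for Pfkfb4, with 13.10 to 14.25 in chronic hypoxia and 12.07 to 12.58 in normoxia, and overlap for the other 3 genes.

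The testis bifunctional enzyme (Pfkfb4) was the only one of the 4 genes whose groups did not overlap on the normalized scale. Its intensity was 8337, 9003 and 35127 on chronic hypoxia membranes 1 to 3, against 7303, 6081 and 9728 on normoxia membranes 1 to 3. As deposited, only chronic hypoxia membrane 3, whose background is high, lay above all normoxia values. Ordered from the brightest spot, Pfkfb4 ranked 80, 40 and 54 of 1185 in chronic hypoxia, against 109, 152 and 140 in normoxia, and these ranks did not overlap. It was above background on 3 of 3 chronic hypoxia and 2 of 3 normoxia membranes. The exception was normoxia membrane 2, where 6081 lay just under the threshold of 6300.

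The normalized log2 intensity of Pfkfb4 was 13.10, 14.25 and 13.73 in chronic hypoxia and 12.58, 12.07 and 12.19 in normoxia. The groups differed by 1.41 (SE 0.56), a 2.65-fold higher level with a 95% interval from 1.12-fold to 6.30-fold. The unadjusted limma p was 0.0304, and 3.08% of the 1038 genes tested were higher with an unadjusted p under 0.05. The limma adjusted p was 0.645 and the two-sided exact permutation p was 0.1, the smallest that 3 against 3 membranes can give. Across the array 0% of the tested genes passed the adjusted threshold of 0.05, so 0 of the 4 members passing matches the background. Groups apart with higher values in chronic hypoxia were found for 6.45% of the genes tested and for 6.58% of the 152 genes detected on 3 or more membranes.

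The direction for Pfkfb4 held over all 13 alternatives, from 0.76 to 1.74, and with each membrane left out, from 1.26 to 1.59, always with an adjusted p of at least 0.320. Among the 13, other filters, the membrane number as a block and other variance settings cannot change the difference. Their direction was fixed in advance. In a comparison of 9 ways of scaling the values, chosen after the data were seen, the groups of Pfkfb4 were apart in 6. The scalings with quantile normalization and the ranks rest on the same order of spots on each membrane, so they are not separate results. Apart from these, only cyclic loess had the groups apart. The groups overlapped without normalization between membranes, with median centring and as intensity over the membrane median. In the last of these the log2 difference was 0.17. The deposited values move in even steps, and a pair of step sizes each hold membranes of both conditions. Within the membranes with steps of 51.5 units, 1 of each condition, the difference was 0.51, and within those with steps of 103.5, with 1 chronic hypoxia and 2 normoxia membranes, it was 2.12. The spots on either side of Pfkfb4 in its row were mostly brighter than it: Aldoc on all 6 membranes and sucrase isomaltase on 5. Sucrase isomaltase, a gut enzyme, had 12239, 10127 and 27547 in chronic hypoxia, against 11663, 6409 and 22487 in normoxia, and its normalized log2 values differed by 0.70 (SE 0.62) with a limma adjusted p of 0.787. The part of neighbouring signal in the Pfkfb4 value was not tested, nor was binding of cDNA of related genes to the spots of Aldoa, Aldoc and Pfkfb4, whose probe sequences were not used here.

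Among the cell type markers, dopamine beta-hydroxylase, which makes noradrenaline in glomus cells, also had groups apart with higher values in chronic hypoxia. Its normalized log2 values differed by 1.08 (SE 0.55) with a limma adjusted p of 0.645. Of the other glomus markers only DOPA decarboxylase, at background, was higher, by 0.28. The differences were -0.22 for the dopamine transporter, -0.33 for carboxypeptidase E and -0.09 for the vesicular acetylcholine transporter. They were -0.82 for the monoamine transporter and -0.87 for the chromaffin granule amine transporter, both mostly at background. The summed normalized level of all 7 glomus markers overlapped, at 16.77 to 16.82 on the log2 scale in chronic hypoxia and 16.49 to 16.86 in normoxia. Liver arginase 1, a urea cycle enzyme, had lower values in chronic hypoxia with groups apart. Its normalized log2 values differed by -2.09 (SE 0.74) with an unadjusted limma p of 0.0169 and an adjusted p of 0.645. Across the array 43 of the 1038 genes tested were lower with an unadjusted limma p under 0.05. The share of all genes that were lower with groups apart was not counted. Myelin proteolipid protein, above background on 1 membrane, was also lower with groups apart, by -1.15 (SE 0.64). The part of cell composition in the Pfkfb4 difference was not tested.

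Muscle phosphofructokinase (Pfkm), the enzyme that fructose 2,6-bisphosphate activates, was above background on 0 of 6 membranes. Its intensity was 1599, 1957 and 15531 on chronic hypoxia membranes 1 to 3, against 2166, 2991 and 2060 on normoxia membranes 1 to 3. All 6 values lay under the median of their own membrane, with ranks from 665 to 1101, and no fold can be drawn from them. A spot at background sets no upper limit on the transcript that could be compared with the other genes, since spots differ in probe and labelling.

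**Figure D3:**
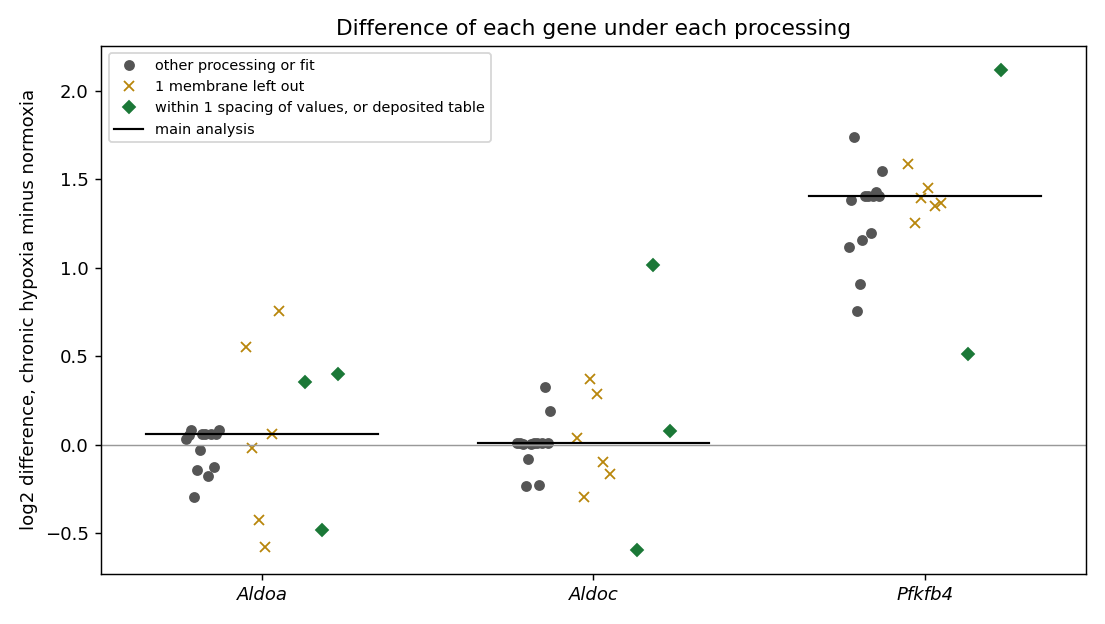
Difference between chronic hypoxia and normoxia (log2) of Aldoa, Aldoc and Pfkfb4 in the main analysis (black line), under other processing or fits (grey circles), with 1 membrane left out (crosses), and within 1 spacing of the values or in the authors' deposited table (diamonds). Pfkfb4 stays above 0 throughout, while Aldoa and Aldoc lie on both sides of 0. Pfkfb4 has no diamond for the authors' deposited table, where its normoxia value is 0 and no ratio can be formed.

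In the authors' deposited table, which averages the membranes of a condition, Aldoa was listed at 19130 in chronic hypoxia and 14483 in normoxia, a ratio of 1.32. For Aldoc the authors' deposited table had 31110 in chronic hypoxia and 29494 in normoxia, a ratio of 1.05. Pfkfb4 was listed in the authors' deposited table at 5317 in chronic hypoxia and at 0 in normoxia, and Pfkm at 0 in both. The 0 for Pfkfb4 in normoxia stands beside 2 normoxia membranes on which it was above background by the rule used here.

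Among 12 other genes of sugar uptake and sugar metabolism on the membranes, 0 passed, 6 were higher and 6 were lower in chronic hypoxia, where 51.8% of all 1038 genes tested were higher. For 11 of the 12 the spot was above background on fewer than 3 membranes, so these directions are mostly those of background spots. Their median log2 difference was 0.02, against 0.03 over all 1038 genes tested. Only Gapdh, the glycolytic enzyme after the aldolase step, was above background on at least 3 membranes. Gapdh had 10726, 4127 and 38863 on chronic hypoxia membranes 1 to 3, against 11618, 6303 and 13462 on normoxia membranes 1 to 3. It was not above background on chronic hypoxia membrane 2, and its log2 values differed by 0.22 (SE 0.79) with a limma adjusted p of 0.960. Hexokinase 1 (Hk1), which traps glucose in the cell, and neuron-specific enolase (Eno2) were above background on 1 normoxia membrane each, and glucose-6-phosphate dehydrogenase on 1 chronic hypoxia membrane. The other 8, among them the glucose transporters Slc2a1 and Slc2a3 and the lactate carrier Slc16a1, were above background on no membrane.

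**Figure D4:**
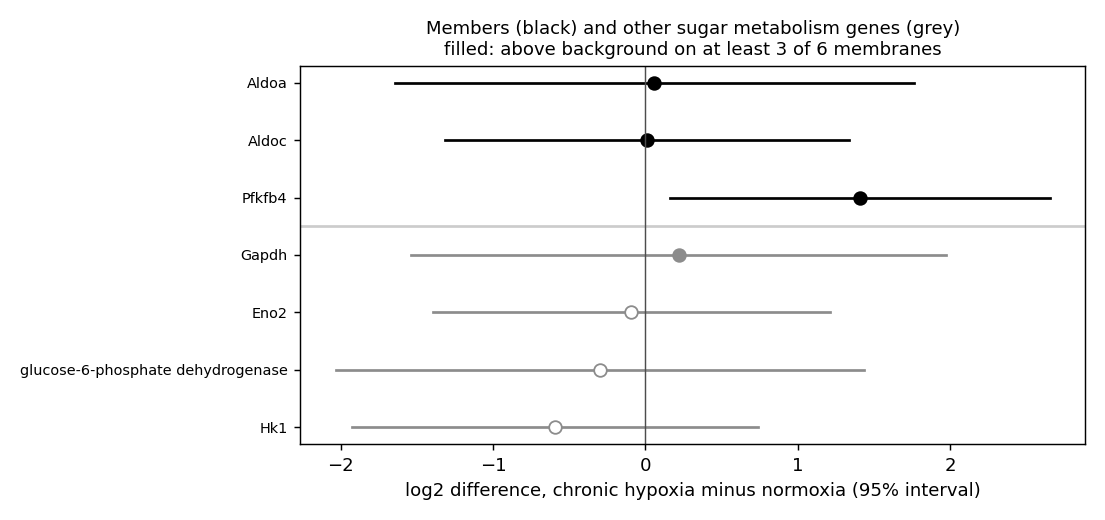
Log2 difference between chronic hypoxia and normoxia with its 95% interval for the members (black) and other genes of sugar metabolism (grey) that were above background on at least 1 membrane; filled points were above background on at least 3 of 6 membranes, and open points on fewer. The interval of Pfkfb4 alone, from 0.16 to 2.66, does not include 0, before adjustment over the array.

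Pearson's r between pairs of the 3 detected members lay between -0.60 for Aldoa with Aldoc and 0.29 for Aldoc with Pfkfb4, given as a description over 6 membranes that share their normalization. Among the other 150 genes detected on 3 or more membranes, the pattern of Pfkfb4 was most like that of nucleoside diphosphate kinase B, at 0.99, followed by proteinase activated receptor 2 at 0.88 and carbonic anhydrase 4 at 0.85. Aldoa was most like carbonic anhydrase 5 at 0.92, the regulatory subunit of glutamate-cysteine ligase at 0.85 and synaptotagmin XI at 0.84. Aldoc was most like c-H-ras at 0.95, c-N-ras at 0.84 and cathepsin H at 0.76. No relation between these genes was tested.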

How the data were processed

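The 6 membranes were made with 32P-labelled cDNA from amplified RNA on Atlas Rat 1.2 nylon arrays and quantified with AtlasImage V2.0, per the labels' protocols. The deposited membrane values are linear intensity values, 1 per gene, with background included and no normalization between membranes. The authors also deposited a table holding a single intensity for each gene in each condition, which per the series' design text averages the 3 membranes and is scaled by the average signal. How background was taken off there is not given in the sources used here.

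In R 4.3.3, limma 3.58.1 was used for normexp background correction (offset 50) and, after log2, quantile normalization. The 1038 genes brighter than the 25th percentile on 3 or more membranes were tested, the 4 members among them. The fit used lmFit and eBayes with condition alone, and p-values were adjusted by Benjamini-Hochberg over the 1038 genes at a threshold of 0.05. Only the fit was tested on simulated data, with planted changes larger than the difference of any member. The background correction, the normalization and the filter were not tested in this way. The number of membranes limits the precision. Python 3.11.15 was used for the rest. The text names each member, the detected genes of the sugar list, the 3 genes most like each detected member and brighter neighbouring spots. Other genes of the sugar list, the glomus markers, liver arginase 1 and myelin proteolipid protein were named after their values were seen. One gene that the naming rule also takes is not reported here. The members and lists were chosen with earlier results of these data known. Alternatives covered background correction, scaling, filter, weights, blocks and left-out membranes.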

Additional observations from a re-analysis of the deposited data

How the results depend on the processing

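No member passed under any alternative, and Pfkfb4 kept its direction under all of them. Other filters, the membrane number as a block and other settings of eBayes leave each difference as in the main fit. They therefore say nothing about the direction. For Aldoa the difference was -0.30 without normalization, -0.14 with median centring, -0.031 with cyclic loess, -0.18 with membrane weights, -0.12 with the spacing of the values as a block and -0.48 within the 103.5 spacing. For Aldoc it was -0.23 without normalization, -0.077 with median centring, -0.23 with membrane weights, -0.59 within the 51.5 spacing and 1.01 within the 103.5 spacing. Pfkfb4 was 0.51 within the 51.5 spacing and 2.12 within the 103.5 spacing. With each membrane left out in turn the difference ran from -0.58 to 0.76 for Aldoa, from -0.30 to 0.37 for Aldoc and from 1.26 to 1.59 for Pfkfb4. The cause of these shifts was not tested. Subtracting each membrane's median gave 14 genes with an adjusted p under 0.05, none a member, against 0 in limma as reported, where 75 genes had an unadjusted p under 0.05, and 0 in the other fits across the array. For Pfkm, above background on no membrane, no difference was computed under the alternatives. Genes with an unadjusted p under 0.05 numbered 146 with membrane weights, 43 without chronic hypoxia membrane 3 and 46 with chronic hypoxia membranes 1 and 3 averaged. Of the sugar list 1 gene was higher where the filter left 1 gene. Same-numbered membranes deviated together only weakly, with correlations of 0.09, 0.11 and 0.02, and were not taken as pairs. With the membrane number as a replicate block, the Pfkfb4 difference was 1.41 with an adjusted p of 0.590, and 0 genes passed. Intensities near the ceiling and spots at background limit what can be measured.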
